A study of Mus musculus with 6 samples.

Results

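Cytochrome P450 genes encode a large family of heme enzymes that insert oxygen into steroids, bile acids, vitamins, fatty acids, drugs and dietary compounds. Here they were the genes whose symbol in the array's annotation is Cyp followed by a family number, letters and a member number, leaving out Cyp4a10 and Cyp51. Of 18194 genes with a probe set that names no other gene, 70 met this rule, and each was represented by its probe set with the highest mean over the arrays. They were measured in bowel tissue labelled as whole colon, taken from 6 C57BL/6 mice on day 7 of 2.5% dextran sodium sulfate (DSS) in the drinking water, a compound that injures the colonic epithelium. All 6 mice were 6 to 8 weeks old at the start and carried a floxed Pparg gene (PPAR g fl/fl). The 3 deficient mice also carried Cre recombinase under the lysozyme M promoter (Lysozyme M cre+), which is active mainly in macrophages and neutrophils, and the 3 control mice were littermates without Cre (Lysozyme M cre-), which the labels call wild-type although they are floxed. The comparison asks how the inflamed bowel differs when the nuclear receptor PPAR gamma is lost in myeloid cells. There were no mice without DSS, and effects of Cre itself cannot be told apart from loss of the receptor.

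In the gut, P450 enzymes sit mainly in the endoplasmic reticulum of absorptive epithelial cells, where they take electrons from P450 reductase and cytochrome b5. A smaller mitochondrial group, which includes Cyp27a1, is fed by ferredoxin. Subfamilies 2C, 2D and 3A act on drugs and food compounds, 2C and 2J also make epoxides of arachidonic acid, and family 4 adds hydroxyl groups to fatty acids and leukotrienes. Many are under the control of nuclear receptors and of HNF4 alpha, a transcription factor of intestinal and liver epithelium. Content of these enzymes is known to change along the length of the bowel.

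Every value below is a log2 expression level made by the authors with GCRMA, where 1 unit is a doubling, and each array held RNA from 1 mouse. Levels of different genes come from different probes and are not set against each other, apart from the uses named below. The 6 arrays had medians from 3.02 to 3.10 and did not share a tissue profile. Genes of the small intestine were high on control replicate 1 and on deficient replicate 3, whereas the other 4 arrays had a colonic pattern. The ileal bile acid binding protein Fabp6 read 15.32 and 14.49 on that pair, and it lay between 5.72 and 7.81 on the rest. Car1, which encodes a colonocyte carbonic anhydrase, read 2.83 and 7.02 on the pair and 13.60 to 15.32 on the others. All 9 small intestine markers with a probe set were higher on both arrays of the pair than on any of the other 4. The labels call all 6 samples colon and name no segment. The colon list was less uniform: of its 10 genes, 4 were lower on both arrays of the pair than on the rest, and Mptx1 was higher on the pair, at 10.10 and 9.55 against 2.62 to 7.22. The other 5, among them the colonocyte genes Car4 and Slc26a3, did not separate the pair. The pair is called the small-intestine-profile arrays below and the others the colon-profile arrays. The rule used, Fabp6 above Car1, is the 1 place where probe sets of different genes were set against each other, and each of the 9 small intestine markers alone splits the arrays in the same way. This is a reading of marker genes that was known from earlier work on these data, so segment patterns are described and not tested.

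The colon-profile arrays also differed among themselves along with genotype. Hoxb13, a homeobox gene of the most distal hindgut, read 2.26 and 2.25 in controls against 3.76 and 7.30 in deficient samples, while Hoxd10 read 6.59 and 6.51 against 3.91 and 2.29. Hoxa10 stood at 7.23 and 7.07 against 8.92 and 8.88, and the water channel Aqp8 at 7.03 and 7.62 against 9.26 and 10.55. Marker genes of position and genotype thus move together on these 4 arrays. Their part in the P450 differences below was not tested. The mean level of the 6 macrophage markers ran from 7.41 to 7.85 in control and 8.19 to 9.50 in deficient samples. That of the 5 neutrophil markers with a probe set ran from 3.12 to 4.97 against 4.59 to 7.58, with Mpo and Cxcr2 near the lowest value on all arrays, and that of 4 adipocyte markers from 6.61 to 8.06 against 4.52 to 6.27, with Lep near the lowest value. Xist, expressed in females, read 12.11 on control replicate 2 and 2.25 on the other arrays. Lyz2, the locus that carries Cre, read 12.32, 11.79 and 12.19 in control and 6.80, 6.24 and 10.39 in deficient samples, without overlap (limma adjusted p 0.658). Pparg itself read 5.28, 9.91 and 9.54 in control and 8.77, 8.23 and 4.15 in deficient samples, and the labels do not say whether its probes lie inside the deleted region.

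**Figure D1:**
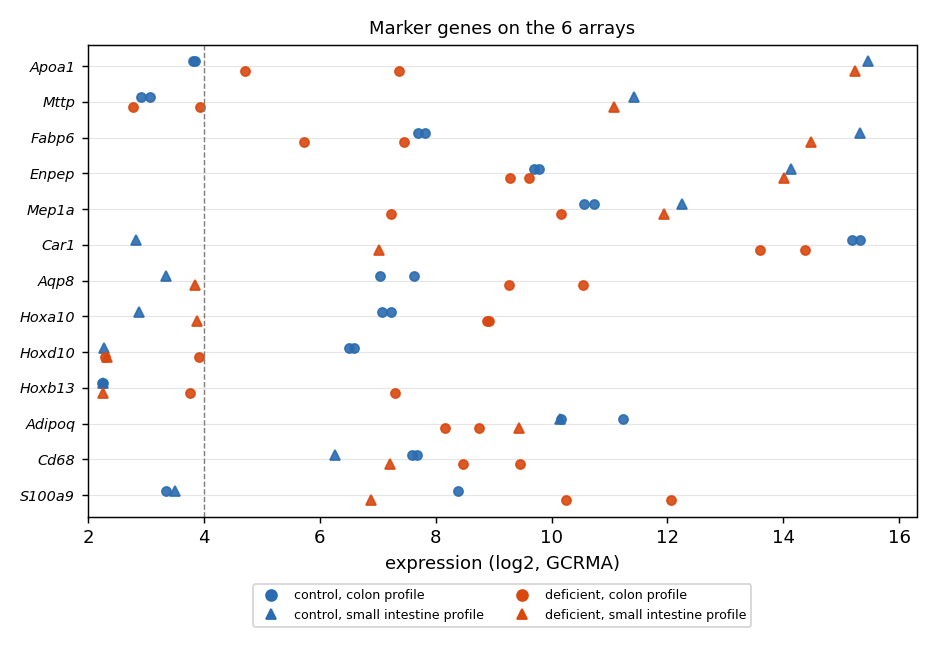
Log2 expression of 13 marker genes (rows) on the 6 arrays, with control samples in blue and deficient samples in orange, triangles for small-intestine-profile and circles for colon-profile arrays, and a dashed line at log2 4. Apoa1, Mttp, Fabp6 and Enpep set the 2 triangles of each row apart at high levels, Car1, Aqp8 and Hoxa10 set them apart at low levels, and Hoxd10 and Hoxb13 separate the circles by genotype.

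Most P450 genes gave no signal above the background of the arrays. Of the 70, 42 (60.0%) were under log2 4 on all 6 arrays, against 37.7% of all genes. These included all 5 genes of steroid hormone synthesis, Cyp11a1, Cyp11b1, Cyp11b2, Cyp17a1 and Cyp21a1, of which none exceeded 2.83 on any array, and the 4 markers of adrenal cortex with a probe set were also under log2 4 throughout. The 3 vitamin D genes were there too: Cyp27b1, which makes the active hormone, read 2.25 on all arrays, Cyp24a1, which breaks it down, at most 2.26, and the liver enzyme gene Cyp2r1 at most 3.63. The bile acid genes Cyp7a1 and Cyp8b1 and the neuronal cholesterol hydroxylase gene Cyp46a1 were likewise under log2 4 on all arrays. All 4 genes of subfamily 2b and 8 of 11 of subfamily 2c were in this set. Hepatocyte markers were mixed: of 6, 3 were under log2 4 on all arrays, among them Alb, which stayed at 2.31. Ttr read 5.43 to 7.45, Serpina1b read 3.74 to 6.57, and Apoh exceeded log2 4 on 1 array. A low value on these arrays may also reflect a poor probe set, so it does not show that a gene is silent.

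A further 24 P450 genes were above log2 4 on at least 3 arrays and were kept for the genotype test, and 4 others exceeded it on 1 or 2 arrays. Each of the 24 was above log2 4 on at least 4 arrays, so none was kept through the samples of 1 genotype alone. Between 22 and 25 of the 70 genes exceeded log2 4 on any given array.

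**Figure D2:**
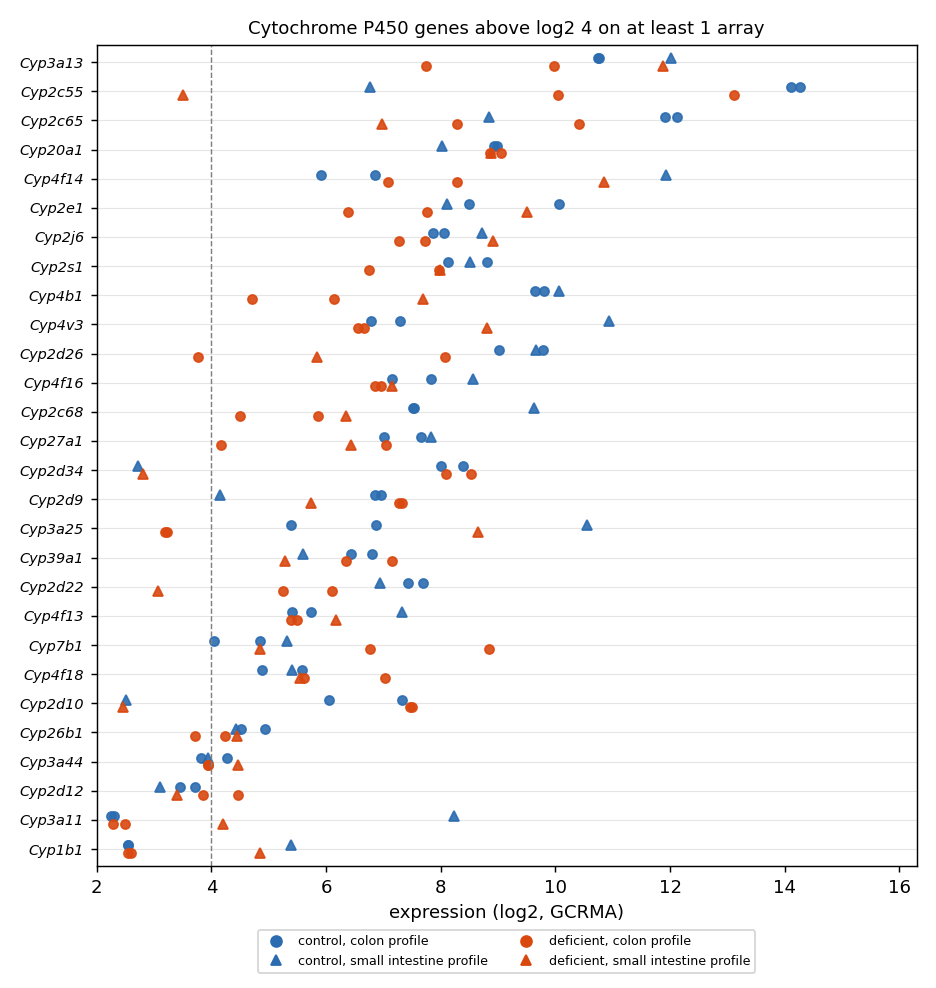
Log2 expression of the 28 P450 genes above log2 4 (dashed line) on at least 1 array, ordered by mean, with control samples in blue, deficient samples in orange, triangles for small-intestine-profile and circles for colon-profile arrays. The 2 triangles lie to the right of all circles for Cyp4f14 and Cyp3a25 and to the left for Cyp2c55, Cyp2d34 and Cyp2d10, while for Cyp4b1, Cyp2d26, Cyp2c68 and Cyp2d22 all orange points lie left of all blue ones.

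The segment profile of an array went with large differences in drug and fatty acid P450 genes. Both small-intestine-profile arrays lay above the other 4 by at least 1 for 6 of 70 genes (8.57%), against 1.57% of all genes, and below them by at least 1 for 4 (5.71%), against 1.47%. Of the 5 genes of subfamily 3a, 3 were on the higher side. Cyp3a25 read 10.56 and 8.65 on the small-intestine-profile arrays of control and deficient mice, against 5.39 and 6.88 on the colon-profile controls and 3.22 and 3.19 on the colon-profile deficient arrays. It was under log2 4 on both of the latter. Cyp3a13, a 3A enzyme gene of mouse intestine, read 12.01 and 11.89 on the pair against 10.75, 10.77, 9.97 and 7.74 on the others. Cyp3a11, which the xenobiotic receptor PXR induces, exceeded log2 4 on the pair alone, at 8.22 and 4.21 against 2.25 to 2.50. Cyp3a44 showed no such split and lay between 3.81 and 4.47.

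In family 4, Cyp4f14 and Cyp4v3 were higher on the pair by at least 1, and Cyp4f13 by 0.43. Cyp4b1, Cyp4f16 and Cyp4f18 were not separated by profile, though a further probe set of Cyp4f16 had the pair highest by 0.03. Cyp4f14, whose enzyme inactivates leukotriene B4, read 11.92 and 10.85 on the small-intestine-profile arrays and 5.92 to 8.29 on the others. Cyp4v3, a fatty acid hydroxylase gene, read 10.93 and 8.80 against 6.56 to 7.29, and its other probe set gave the same order with 9.37 and 6.86 against 4.40 to 5.31. Cyp4f13, the neighbour of Cyp4f14 in the genome, differed less, at 7.32 and 6.18 against 5.38 to 5.74. Outside these families Cyp1b1, a target of the aryl hydrocarbon receptor, read 5.39 and 4.84 against 2.54 to 2.59, and a further probe set of Cyp1b1 stayed under log2 4 on all arrays with 2.66 and 2.72 against 2.28 to 2.30. Cyp2j6, of the arachidonic acid epoxygenase subfamily, read 8.73 and 8.91 against 7.27 to 8.05, so that here the pair stood apart by less than the colon-profile arrays spread.

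The genes on the lower side by any margin were 4 of subfamily 2d, Cyp2c55 and Cyp39a1. The margin was under 1 for Cyp2d12 and Cyp39a1, at 0.07 and 0.75. A share of all genes was counted for margins of at least 1 alone. Cyp2c55, whose enzyme oxidises arachidonic acid, read 6.77 and 3.50 on the small-intestine-profile arrays, against 14.27 and 14.11 on the colon-profile controls and 13.11 and 10.05 on the colon-profile deficient arrays. Cyp2d34 read 2.71 and 2.80 on the pair, under log2 4, and 8.004 to 8.53 on the other 4. Cyp2d10 read 2.50 and 2.46 against 6.05 to 7.49, and Cyp2d9 4.14 and 5.74 against 6.85 to 7.32. The gap between the pair and the nearest colon-profile array was wide for Cyp2d34 and Cyp2d10, while for Cyp2d9 it was smaller than the difference within the pair. Cyp2d12 had the pair lowest as well, but it exceeded log2 4 on 1 array alone. Cyp39a1, which hydroxylates an oxysterol on the way to bile acids, read 5.59 and 5.28 against 6.34 to 7.16. Genes of the 2d subfamily resemble each other in sequence, so a probe set may pick up more than 1 of them, and that of Cyp2d9 carries a suffix for shared probes.

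Several of these genes are neighbours in the genome, so their promoter sequences were compared. The 250 bases before the start of transcription were taken from RefSeq (GRCm38.p6) for 51 of the 70 genes, 20 of them among the 24 kept for the genotype test. They were searched on both strands for CAAAGNNCA, a form of the HNF4 site, and for TATAAA, the TATA box. Both sets of letters were chosen after some of the windows had been read. The HNF4 letters occurred in 17 of 51 P450 windows (33.3%) against 5.47% of the 27025 genes with a window, and in 7 of 20 kept genes (35.0%) against 10 of 31 others (32.3%). The TATA letters occurred in 19 of 51 (37.3%) against 12.97%. The motifs overlapped in 0 windows. A match is a description of letters and not a binding site.

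Windows of the 2c and 2d genes follow, with both motifs in capitals, as they show which neighbours share them. They are Cyp2c55 (chr19:39006769-39007018, + strand), Cyp2c65 (chr19:39060756-39061005, + strand), Cyp2c68 (chr19:39741102-39741351, - strand), Cyp2d10 (chr15:82407195-82407444, - strand), Cyp2d9 (chr15:82452127-82452376, + strand) and Cyp2d26 (chr15:82794246-82794495, - strand).
Cyp2c55: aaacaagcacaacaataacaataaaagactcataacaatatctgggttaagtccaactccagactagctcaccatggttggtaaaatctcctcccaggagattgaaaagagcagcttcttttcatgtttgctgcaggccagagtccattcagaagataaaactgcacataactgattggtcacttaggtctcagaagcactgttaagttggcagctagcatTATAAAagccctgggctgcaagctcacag
Cyp2c65: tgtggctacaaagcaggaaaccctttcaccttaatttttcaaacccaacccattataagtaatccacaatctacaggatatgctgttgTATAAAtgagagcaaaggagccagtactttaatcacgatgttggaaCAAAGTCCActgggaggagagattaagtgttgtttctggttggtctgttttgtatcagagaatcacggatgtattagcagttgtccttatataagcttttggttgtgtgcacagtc
Cyp2c68: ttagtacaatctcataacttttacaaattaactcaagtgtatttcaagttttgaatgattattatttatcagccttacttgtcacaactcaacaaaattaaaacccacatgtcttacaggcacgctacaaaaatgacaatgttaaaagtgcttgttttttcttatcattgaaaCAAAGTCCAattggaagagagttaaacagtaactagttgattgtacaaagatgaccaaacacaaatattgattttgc
Cyp2d10: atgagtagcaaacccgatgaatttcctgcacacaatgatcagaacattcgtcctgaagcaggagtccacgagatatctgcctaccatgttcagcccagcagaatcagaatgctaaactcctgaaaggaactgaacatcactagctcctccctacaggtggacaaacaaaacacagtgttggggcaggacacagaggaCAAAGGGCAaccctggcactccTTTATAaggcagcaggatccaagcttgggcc
Cyp2d9: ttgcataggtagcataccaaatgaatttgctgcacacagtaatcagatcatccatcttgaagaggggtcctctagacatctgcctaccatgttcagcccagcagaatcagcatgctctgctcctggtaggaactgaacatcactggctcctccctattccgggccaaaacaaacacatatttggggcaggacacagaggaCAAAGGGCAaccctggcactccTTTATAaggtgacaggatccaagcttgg
Cyp2d26: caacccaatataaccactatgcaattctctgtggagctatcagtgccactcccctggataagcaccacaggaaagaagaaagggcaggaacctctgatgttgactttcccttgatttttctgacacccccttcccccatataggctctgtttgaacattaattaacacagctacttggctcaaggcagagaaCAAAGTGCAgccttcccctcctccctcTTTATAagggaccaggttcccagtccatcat

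Cyp2d10 and Cyp2d9, which neighbour each other, carried the same HNF4 letters 53 and 50 bases before the start and were 82.8% identical over the aligned windows. Cyp2d26 carried a variant 58 bases before the start, and its window was 54.4% identical to that of Cyp2d10. All 3 had the TATA letters on the reverse strand, beginning 31, 28 and 31 bases before the start. Cyp2d10 and Cyp2d9 also shared the low levels on both small-intestine-profile arrays, while Cyp2d26 read 9.65 on control replicate 1, within its colon-profile range of 3.76 to 9.79. In the 2c cluster, Cyp2c65 and Cyp2c68 shared identical HNF4 letters at 116 and 77 bases, and Cyp2c55, the neighbour of Cyp2c65, had none in this window. Aligned windows of Cyp2c55 and Cyp2c65 were 54.9% identical and those of Cyp2c65 and Cyp2c68 50%. A pair from different families, Cyp3a25 and Cyp4b1, gave 48.6%, so of the pairs aligned Cyp2d10 and Cyp2d9 alone stood well above that level.

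No P450 gene passed the genotype test. By limma with Benjamini-Hochberg adjustment over 10488 genes, 0 of the 24 had an adjusted p under 0.05, as had 0% of all genes, and the smallest adjusted p of a P450 gene was 0.658. At an unadjusted limma p under 0.05, 4 of 24 (16.7%) differed in the direction of lower deficient levels against 2.36% of all genes, and 0 of 24 in the other direction against 5.1%. All 3 deficient samples lay below all 3 control samples for 6 of 24 (25.0%) against 4.15% of genes, and above them for 0 against 9.35%. The difference was below 0 for 17 of 24 (70.8%), against 43% of genes. The median difference, deficient minus control, was -0.89 over the 24 and 0.06 over all genes. Without deficient replicate 2 the median over the P450 genes was -0.44, and without deficient replicate 3 the count at an unadjusted p under 0.05 was 7. With 3 mice per group an exact permutation test of a single gene cannot go below 0.1. In tissue, fewer cells of a type and less RNA per cell cannot be told apart.

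Each genotype included 1 small-intestine-profile array, so each gene was also read within the 2 kinds of array. Over the 24 genes the median was -0.66 among the 4 colon-profile arrays and -0.80 between the 2 small-intestine-profile arrays, against 0.08 and 0.00342 over all genes. Of the 24, 13 (54.2%) were below 0 in both, against 23.6% of all genes. With the profile as a block, 9 of 24 had an unadjusted limma p under 0.05 with lower deficient levels, against 5.33% of genes, and 1 with higher levels, against 8.11%. Among the 4 colon-profile arrays the counts were 6 against 4.92% and 1 against 9%. No adjusted p was under 0.05 in either fit, as in 0% of all genes, and the smallest for a P450 gene were 0.252 and 0.232.

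The widest separation of genotypes was that of Cyp4b1, whose enzyme oxidises medium-chain fatty acids and some foreign compounds. The 3 control samples read 10.06, 9.65 and 9.81 and the 3 deficient samples 6.14, 4.70 and 7.69. Every deficient sample lay at least 1 unit below every control, and the control samples differed by less than 1 unit among themselves. The means were 9.84 ± 0.205 and 6.18 ± 1.497 (SD, n = 3 per group). Their difference was -3.66 ± 0.73 (standard error), with a limma adjusted p of 0.658 and an unadjusted p of 0.00268. It was -4.31 among the colon-profile arrays and -2.36 between the other 2. The 3 measured adipocyte markers, Adipoq, Cidec and Retn, also had no deficient sample above a control: Adipoq read 10.15, 11.24 and 10.16 in control and 8.75, 8.16 and 9.43 in deficient samples. The part of fat tissue in the Cyp4b1 values was not tested.

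Cyp2d26 had the next largest difference among genes whose groups did not overlap. Control samples read 9.65, 9.02 and 9.79 and deficient samples 8.07, 3.76 and 5.84, so that the deficient samples spread over more than 4 units. Means of 9.49 ± 0.41 and 5.89 ± 2.15 (SD, n = 3) gave a difference of -3.60 ± 1.06 (standard error) and a limma adjusted p of 0.658. The difference was -3.49 among the colon-profile arrays and -3.81 between the other 2. The first averages deficient samples at 8.07 and 3.76, and it is bounded by the background, since 3.76 is under log2 4. Without deficient replicate 2 the difference over all arrays was -2.53. The relatives Cyp2d34, Cyp2d10 and Cyp2d9 did not share the negative difference of Cyp2d26. They differed by 0.11, 0.51 and 0.79, with the genotypes overlapping for each. Cyp2d22 resembled Cyp2d26, with 6.94, 7.69 and 7.43 in control and 6.10, 5.25 and 3.06 in deficient samples. Its difference was -2.55 ± 0.78 (standard error, limma adjusted p 0.658), and a further probe set of Cyp2d22 gave -1.61, also without overlap. Both probe sets were under log2 4 on deficient replicate 3, so these differences are bounded by the background. Without that array the first was -1.68.

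The 3 measured genes of subfamily 2c all had negative differences. Cyp2c68 read 9.63, 7.54 and 7.52 in control and 5.86, 4.49 and 6.35 in deficient samples, and every deficient sample was at least 1 unit below every control. The difference was -2.66 ± 0.75 (standard error, limma adjusted p 0.658), with -2.35 among the colon-profile arrays and -3.29 between the other 2. Cyp2c65, an arachidonic acid epoxygenase gene of the gut, read 8.84, 12.12 and 11.91 in control and 10.40, 8.28 and 6.97 in deficient samples. Here the groups overlapped over all 6 arrays, since the lowest control was the small-intestine-profile array. Within the kinds of array each deficient sample was below each control, with differences of -2.67 and -1.87 (all 6 arrays -2.41, limma adjusted p 0.703, and 0.295 with the profile block). Cyp2c55 behaved alike, with -2.61 and -3.26, and over all arrays its difference was -2.82 ± 3.12 (standard error, adjusted p 0.841). Leaving out 1 array moved the Cyp2c55 value to between -5.30 (without control replicate 1) and -0.13 (without deficient replicate 3), and by over 1.5 times for every array but deficient replicate 2. Its second within-profile difference is bounded by the background, since deficient replicate 3 read 3.50. Profile separated Cyp2c55 and did not separate Cyp2c65. The probe set of Cyp2c65 carries a suffix for shared probes, so it may pick up other genes as well.

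**Figure D3:**
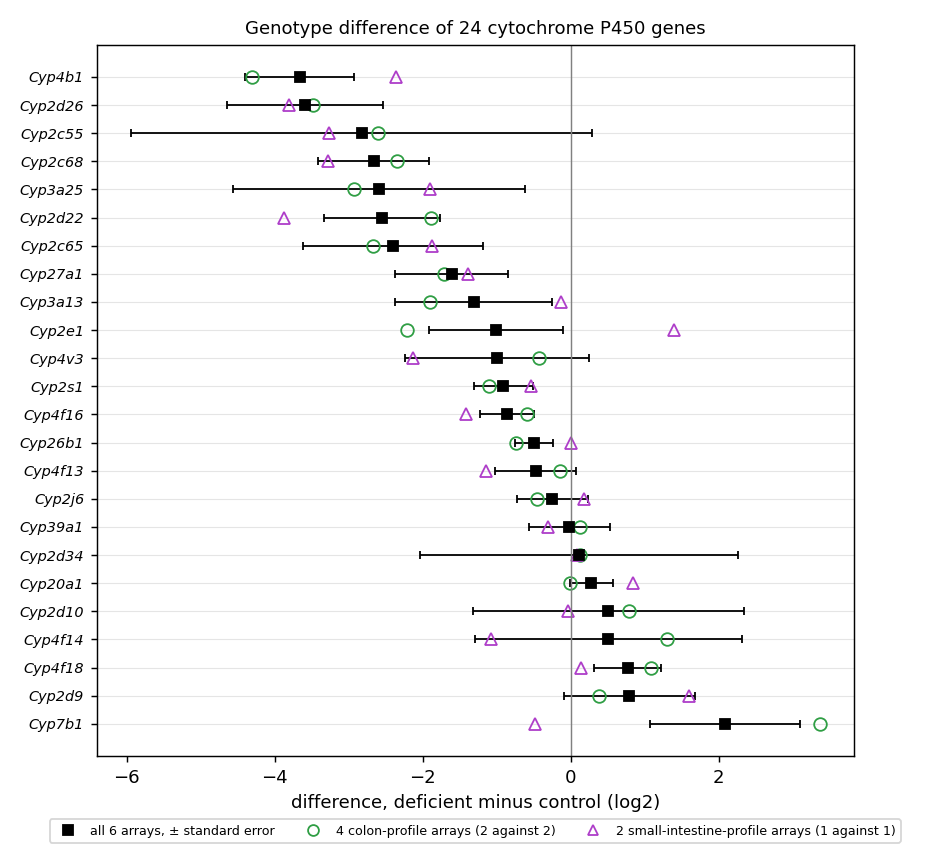
Difference in log2 expression, deficient minus control, of the 24 P450 genes kept for the test, with black squares and standard errors from limma on all 6 arrays, green circles for the 4 colon-profile arrays and purple triangles for the 2 small-intestine-profile arrays. Cyp4b1, Cyp2d26, Cyp2c68, Cyp2d22 and Cyp2c65 lie left of 0 in all 3 readings, and Cyp7b1 lies right of 0 among the colon-profile arrays at 3.36 and left of it at -0.48 between the other 2.

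Both measured genes of subfamily 3a had negative differences in both kinds of array. Cyp3a25 differed by -2.93 among the colon-profile arrays and by -1.90 between the other 2 (all 6 arrays -2.59, limma adjusted p 0.778). On the colon-profile deficient arrays it stood at 3.22 and 3.19, so the first difference is bounded by the background. Over all arrays the Cyp3a25 value was -1.11 without control replicate 1, -1.69 and -1.67 without deficient replicates 1 and 2, and -4.40 without deficient replicate 3. Cyp3a13 differed by -1.91 among the colon-profile arrays and by -0.13 between the others, with its lowest value of 7.74 on deficient replicate 2 (adjusted p 0.788). Its difference of -1.31 over all arrays was -0.25 without that array and -2.32 without deficient replicate 3. Deficient replicate 2 had the lowest value of the 4 colon-profile arrays for 15 of the 24 genes (62.5%), against 26.7% of all genes tested. The small intestine marker Mep1a, a brush border protease, read 7.24 on it against 10.16 to 10.74 on the other 3, and the neutrophil marker S100a9 12.06 against 3.35 to 10.24. Genes of colonocytes were mixed: among the 4 arrays Car1 was lowest on deficient replicate 2, at 13.60. Aqp8 and Car4 were highest on it, at 10.55 and 13.16, and Slc26a3 was second highest, at 11.54. The part of cell content in the P450 values of that array was not tested.

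The windows of Cyp3a25 (chr5:146009619-146009868, - strand) and Cyp4b1 (chr4:115647722-115647971, - strand) are given with HNF4 letters in capitals, since Cyp3a25 separated the segments and Cyp4b1 the genotypes.
Cyp3a25: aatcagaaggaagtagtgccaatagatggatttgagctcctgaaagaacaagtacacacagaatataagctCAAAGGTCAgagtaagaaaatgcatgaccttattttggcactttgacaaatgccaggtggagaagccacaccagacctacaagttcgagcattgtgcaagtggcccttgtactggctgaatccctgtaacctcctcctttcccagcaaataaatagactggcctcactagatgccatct
Cyp4b1: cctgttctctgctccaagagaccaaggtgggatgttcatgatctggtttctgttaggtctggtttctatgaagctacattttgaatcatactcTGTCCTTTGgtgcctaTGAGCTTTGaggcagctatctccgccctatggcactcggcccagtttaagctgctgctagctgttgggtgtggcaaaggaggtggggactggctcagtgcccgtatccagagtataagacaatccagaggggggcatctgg
Cyp3a25 had these letters once, 179 bases before the start, and Cyp4b1 had them at 157 and 141 bases on the reverse strand. Neither window held the TATA letters. Hnf4a, the gene of the factor the motif is named for, read 12.11, 11.71 and 11.50 in control and 11.53, 10.91 and 11.88 in deficient samples, which overlap.

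Other family 4 genes differed less. Cyp4f16 had groups that did not overlap, at 8.55, 7.83 and 7.15 in control against 6.85, 6.95 and 7.14 in deficient samples, though the nearest values differed by less than 0.1. Its difference was -0.86 ± 0.37 (standard error, limma adjusted p 0.675) and -0.51 without control replicate 1, and its further probe set overlapped between genotypes, with -0.67. Cyp4f18, a leukotriene B4 hydroxylase gene of neutrophils and other myeloid cells, was among the 7 genes with a positive difference, at 0.77 (limma adjusted p 0.727) and 0.29 without deficient replicate 2. It read 7.02 on deficient replicate 2 and 4.88 to 5.62 on the other 5 arrays, and deficient replicate 2 also had the highest S100a9. The part of neutrophils in this value was not tested. Cyp4f14 differed by 1.30 among the colon-profile arrays and by -1.07 between the others, Cyp4v3 by -0.42 and -2.13, and Cyp4f13 by -0.14 and -1.14, with limma adjusted p from 0.848 to 0.959 over all 6 arrays.

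Of the 6 bile acid and sterol genes, 3 were measured, and they did not share a direction. Cyp27a1, the mitochondrial sterol hydroxylase gene that is also active in macrophages, read 7.82, 7.00 and 7.65 in control and 7.05, 4.17 and 6.43 in deficient samples. The groups overlapped by a narrow margin, and deficient replicate 2 stood more than 2 units below the rest. The difference was -1.61 ± 0.76 (standard error, limma adjusted p 0.696), and without deficient replicate 2 it was -0.75. Cyp39a1 differed by -0.02. Cyp7b1, which inactivates oxysterols that steer immune cells, had the largest positive difference of the 24. It read 5.32, 4.04 and 4.84 in control and 6.77, 8.84 and 4.84 in deficient samples, so that both colon-profile deficient arrays were above all others. The difference was 2.08 ± 1.01 (standard error, limma adjusted p 0.699), with 3.36 among the colon-profile arrays and -0.48 between the other 2. A further probe set gave 2.72 and -1.28 in these readings. Without deficient replicate 2 the difference over all arrays was 1.07. Of the 6 macrophage markers, Cd68, Msr1 and Ly86 were likewise higher on these 2 arrays than on any other, with Cd68 at 8.48 and 9.46 against 6.26 to 7.67, and Csf1r, Adgre1 and Aif1 were not. The part of myeloid cells in the Cyp7b1 values was not tested.

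The remaining measured genes were the single measured members of their subfamilies. Cyp2s1, an epithelial gene that the aryl hydrocarbon receptor induces, read 8.52, 8.13 and 8.80 in control and 7.96, 6.75 and 7.99 in deficient samples. The groups were separated by a narrow margin, between 7.99 and 8.13, and the difference of -0.91 ± 0.40 (standard error) had a limma adjusted p of 0.681. Without deficient replicate 2 it was -0.51. Cyp2e1, which oxidises ethanol, differed by -2.21 among the colon-profile arrays and by 1.40 between the other 2, and by -1.01 over all 6 (adjusted p 0.805). That value was -0.42 without control replicate 2, -0.26 without deficient replicate 2 and -1.82 without deficient replicate 3. Cyp2e1 was highest on control replicate 2, at 10.07, where Adipoq was highest as well. On deficient replicate 3 it read 9.51, above control replicates 1 and 3, whereas Adipoq was lower there than on those 2. The part of fat tissue in the Cyp2e1 values was not tested. Cyp26b1, which degrades retinoic acid, read between 3.72 and 4.93, close to the background, and differed by -0.49, or by -0.28 without deficient replicate 2. Cyp2j6 differed by -0.25. Cyp20a1, an orphan member with no settled substrate, read 8.03 on control replicate 1 and 8.85 to 9.05 on the other 5 arrays, a difference of 0.28 (adjusted p 0.831).

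Genes that serve or control P450 enzymes were read from a list of 25, of which 22 had a probe set and 19 were kept for the test. No member had a limma adjusted p under 0.05. The difference was below 0 for 16 of 19, against 43% of all genes, and above it for 3, with a median of -0.42 against 0.06 over all genes, and 5 of 19 had an unadjusted p under 0.05 with lower deficient levels, against 2.36% of all genes, and none with higher levels. The 3 with the smallest p were Ppargc1a, Ppara and Ephx2. Ppargc1a, a coactivator of metabolic nuclear receptors, read 6.98, 8.18 and 8.21 in control and 6.54, 5.23 and 5.86 in deficient samples, a difference of -1.92 (limma adjusted p 0.658). Ppara, the fatty acid receptor that induces genes of subfamily 4a, read 7.97, 8.27 and 7.999 against 6.82, 4.82 and 6.70. Its difference was -1.96 (limma adjusted p 0.658). The 4a genes Cyp4a14 and Cyp4a31 were under log2 4 on all arrays, at 2.33 or less and 2.45 or less. Ephx2, the soluble hydrolase that removes the epoxides made by 2C and 2J enzymes, differed by -1.53 (adjusted p 0.658). For Ppargc1a, Ppara and Ephx2 no deficient sample reached a control sample, though for Ephx2 the nearest values were 7.69 in control and 7.67 in deficient samples.

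**Figure D4:**
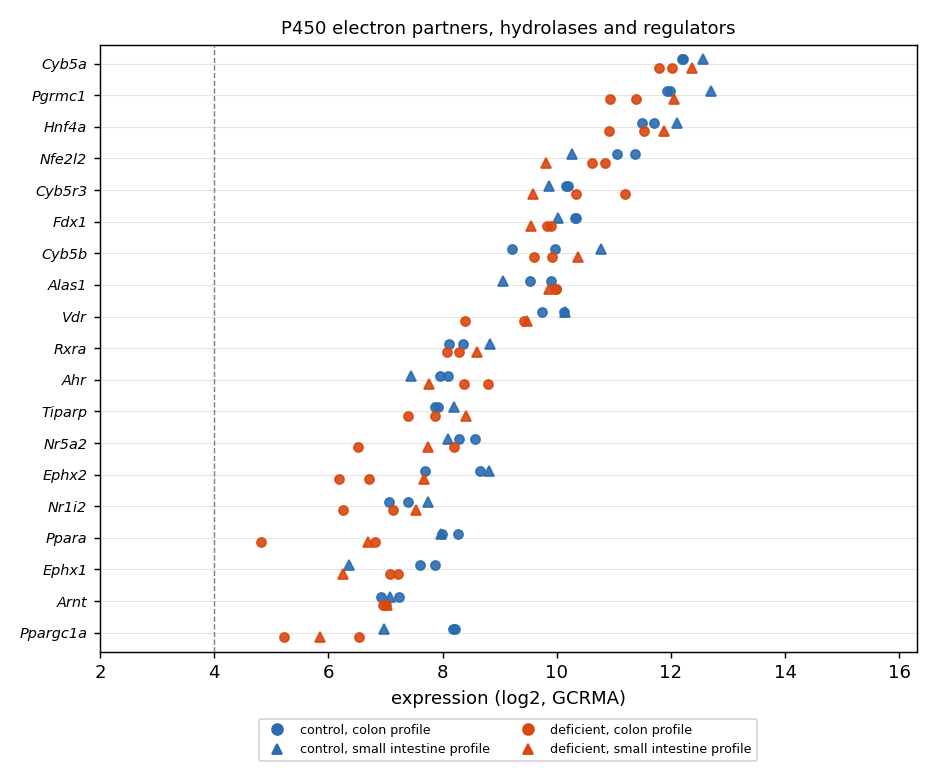
Log2 expression of the 19 measured genes of electron partners, epoxide hydrolases and regulators on the 6 arrays, with control samples in blue, deficient samples in orange, triangles for small-intestine-profile and circles for colon-profile arrays. Ppara, Ppargc1a, Ephx2, Vdr and Fdx1 show all orange points left of all blue points, whereas for Arnt, Rxra and Cyb5a the colours overlap.

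Vdr, the vitamin D receptor, read 10.14, 9.75 and 10.12 in control and 9.43, 8.39 and 9.48 in deficient samples, a difference of -0.91 (limma adjusted p 0.666), while its target Cyp24a1 was under log2 4 throughout. Fdx1, the ferredoxin that feeds mitochondrial P450 enzymes such as Cyp27a1, differed by -0.47 (adjusted p 0.666). The xenobiotic receptor gene Nr1i2 read highest on the small-intestine-profile arrays, at 7.75 and 7.54 against 6.26 to 7.39, the arrays on which Cyp3a11 exceeded log2 4. Ahr, the aryl hydrocarbon receptor gene, was lowest on these arrays, with 7.45 and 7.77 against 7.96 to 8.80. Its target Cyp1a1 stayed at 2.83 or less, with that value on deficient replicate 3. The target Cyp1b1 went the other way from Ahr and was higher on these arrays, at 5.39 and 4.84 against 2.54 to 2.59. Genotypes overlapped for both receptors. Alas1, whose enzyme catalyses the first step in the synthesis of heme, was among the 3 with a positive difference, at 0.45 (limma adjusted p 0.715).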

How the data were processed

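Affymetrix Mouse 430 2.0 arrays measured total RNA, 1 array per mouse. The deposited values are log2 summaries per probe set, which the authors computed by GCRMA according to the submitters' processing notes. Version and settings were not given in the sources used here, and the log2 scale was read from the values, 2.25 to 16.2 with a shared lowest value. GCRMA compresses differences near that background. Of 45101 probe sets, 34958 named 1 gene, 932 several and 9211 none in the platform annotation. Those of several genes, 4 with P450 names, were left out. Symbols and Entrez identifiers of all 70 P450 genes matched RefSeq. A gene was kept when its probe set exceeded log2 4 on at least 3 of 6 arrays.

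Deficient and control samples were compared in R 4.3.3 by limma 3.58.1 (lmFit and eBayes, two-sided, without covariates), with Benjamini-Hochberg adjusted p-values over the 10488 genes kept, at a threshold of 0.05. The fit was tested on simulated data. Named genes were the brightest measured gene of each role, those at an unadjusted p under 0.05, those without overlap and a difference of at least 1, the 8 per direction that stood farthest apart on the small-intestine-profile arrays, and the 3 partner genes of smallest p. Cyp7b1, Cyp2c65, Cyp3a44, Cyp4f16 and Cyp4f18 were named after their values were seen, as were the partner genes beyond those 3 and the marker genes given singly. Members, lists and alternatives were chosen with earlier results of these data known. The number of arrays limits the precision.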

Additional observations from a re-analysis of the deposited data

How the results depend on the processing

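No P450 gene passed an adjusted p of 0.05 under any of 16 alternative settings. The smallest limma adjusted p of a P450 gene ran from 0.232 without the 2 small-intestine-profile arrays to 0.986 without deficient replicate 2. The count at an unadjusted p under 0.05 was 4, and it was 10 with a profile block, 7 without the small-intestine-profile arrays, 7 without deficient replicate 3, 6 without deficient replicate 1, 5 without control replicate 1, 3 without control replicate 2 and 6 with the replicate block. The median difference of -0.89 was -0.00020 with no filter, where all 70 genes enter and most lie at the background. Without 1 array it ran from -0.98 to -0.44, the last without deficient replicate 2. The deviations of same-numbered samples from their group means correlated at -0.54, 0.36 and -0.61. Under replicate numbers 1 and 3 the control and deficient arrays differed in profile, so these values cannot show whether same-numbered samples were paired. With the replicate block the median stayed at -0.89 and 0 genes passed. Over the 24 genes, 357 of 377 values kept their direction. Settings of the filter, the blocks and the eBayes step leave each difference as it is, so their part of this count was fixed in advance. The 20 values that changed direction came from 9 genes. Without the small-intestine-profile arrays Cyp20a1 differed by -0.0037 and Cyp39a1 by 0.13. Leaving out 1 array gave -0.028 to 0.45 for Cyp20a1, -0.89 to 2.18 for Cyp2d10, -1.72 to 1.95 for Cyp2d34, -0.13 to 1.31 for Cyp2d9, -0.72 to 0.10 for Cyp2j6, -0.46 to 0.47 for Cyp39a1, -0.85 to 0.11 for Cyp4f13, -0.65 to 2.36 for Cyp4f14 and -1.77 to 0.31 for Cyp4v3. The cause was not tested. For Ppargc1a, Ppara and Ephx2 every deficient sample lay below every control, so leaving out arrays could not reverse their direction. Their direction was kept in all 47 values compared. Among all genes, 1 passed with probe sets without a cross-hybridisation suffix and 0 under the other settings.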
